A study of Mus musculus with 3 samples.

Results

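The primary cilium is a single, non-motile antenna that grows from the older centriole of the cell and carries receptors, among them those of the Hedgehog pathway, in its membrane. It is built by intraflagellar transport (IFT), in which trains of IFT-B and IFT-A proteins move cargo along the axoneme, kinesin-2 drives them to the tip and dynein-2 brings them back. The BBSome, a coat recruited by the small GTPase Arl6, moves membrane proteins out of the cilium, while the transition zone at the base controls what enters. In skin mesenchyme, as in most cells of the embryo, the cilium is known as the site where Hedgehog signals are read.

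The 43 listed genes cover these parts: 11 of IFT-B, 6 of IFT-A with its adaptor, 2 of dynein-2, 9 of the BBSome and its chaperonins, 3 Arf-like GTPases, 5 of the transition zone, 3 of the basal body and centriolar satellites, 2 of the Ellis-van Creveld zone and 2 polycystins. Members were the genes whose name equalled the symbol of a probe in the deposited table or, failing that, an entry in its list of synonyms. This found 28 of the 43 genes, with 38 of the 25697 probes, and every match was by symbol. A further 10 listed genes were read under an older symbol that the RefSeq gene table pairs with the current name, such as Rabl4 for Ift27. With these, 38 genes were measured by 55 probes. For Ttc21b, Dync2h1, Bbs10, Arl13b and Mks1 no probe was found under any of these names, and they were not analysed here.

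RNA came from dorsal dermal fibroblast progenitors of mouse embryos at embryonic day 12.5 that carried 1 copy of Engrailed1Cre and 1 copy of R26R, which reports Cre activity from Rosa26. Cre is driven by the Engrailed1 gene, and every array carries both alleles, with no Cre-free group beside it. The cells were cut out of tissue sections with a laser, and material of 5 embryos was combined. That 1 pool was read on 3 Illumina bead arrays, numbered 1 to 3, which are technical repeats, so every SD gives the spread between arrays, not between embryos, and the number of arrays limits the precision. All samples form 1 group, so no contrast between conditions exists and no p-value for a difference is given.

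Signals are the authors' normalized bead intensities in arbitrary units. The detection p ranks a probe against the negative controls of its own array, and a probe was called detected where it lay under 0.01 on all 3 arrays. That threshold corresponded to a normalized signal of 23.1 on array 1, 44.3 on array 2 and 31.2 on array 3, called the detection limit below, so array 2 needed the highest signal for a call. Levels of different probes are not set against each other, because probes differ in how well they bind. Of 8 markers of dermal fibroblast progenitors 7 were detected, with a summed signal of 14892 to 16095 per array, Dpt being the exception at signals of 2.04, -0.847 and 5.18. En1, the Engrailed1 gene, was detected at 47.9, 53.3 and 38.6, near the limit on arrays 2 and 3. Markers of other cell types were read as well, with 4 of 4 for epidermis (summed signal 1754 to 1888 per array), 3 of 4 for endothelium (453 to 538), 3 of 5 for skeletal muscle (6912 to 8245), 5 of 5 for erythroid cells (82760 to 136959), 3 of 4 for neurons (1303 to 1359), 4 of 4 for cartilage (3642 to 3857) and 3 of 4 for macrophages (643 to 687). Each sum is over its own probes and serves to compare arrays within a list, not lists with each other. The erythroid sum was highest on array 2, through Hba-a1 (39600, 66847 and 39956 on arrays 1, 2 and 3) and Hbb-y (38522, 65054 and 37953). The arrays read the same pool, and the reason for this difference was not tested. Kdr, Myod1, Myf5, Tubb3 and Ptprc were not detected. Which of these cells the cilium transcripts came from was not tested, and in pooled tissue fewer cells with a transcript and less of it per cell cannot be told apart.

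Of the 28 members found by symbol, 20 (71.4%) were detected, where 43.4% of all 18120 symbols on the array were. With the older symbols 26 of 38 (68.4%) were detected, beside 43.6% of the 17849 genes that remained after all older symbols were updated, and beside 47% when chemosensory and beta-defensin genes were left out. By probe the counts were 28 of 38 (73.7%), beside 37.7% of all probes. Other call rules gave 21 of the 28 genes at a detection p under 0.05 (48.3% of all symbols), 20 under 0.001 (39.4%), 21 with at least 2 arrays (47.4%), 23 with at least 1 array (51.5%) and 19 with every probe of the gene detected (32.4%). Under each rule the share of members was above that of all symbols. A detection p of 0 on all 3 arrays was recorded for 27 of the 28 detected member probes, and 17 of the 28 lay above 5 times the limit on every array. The same counts over all detected probes were not computed, so neither count sets the members apart. By symbol, 7864 of all 18120 passed under 0.01 and 7146 under 0.001. Of the 10 member probes that were not detected, 7 failed on every array, 2 passed on 1 array and 1 passed on 2 arrays.

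**Figure D1:**
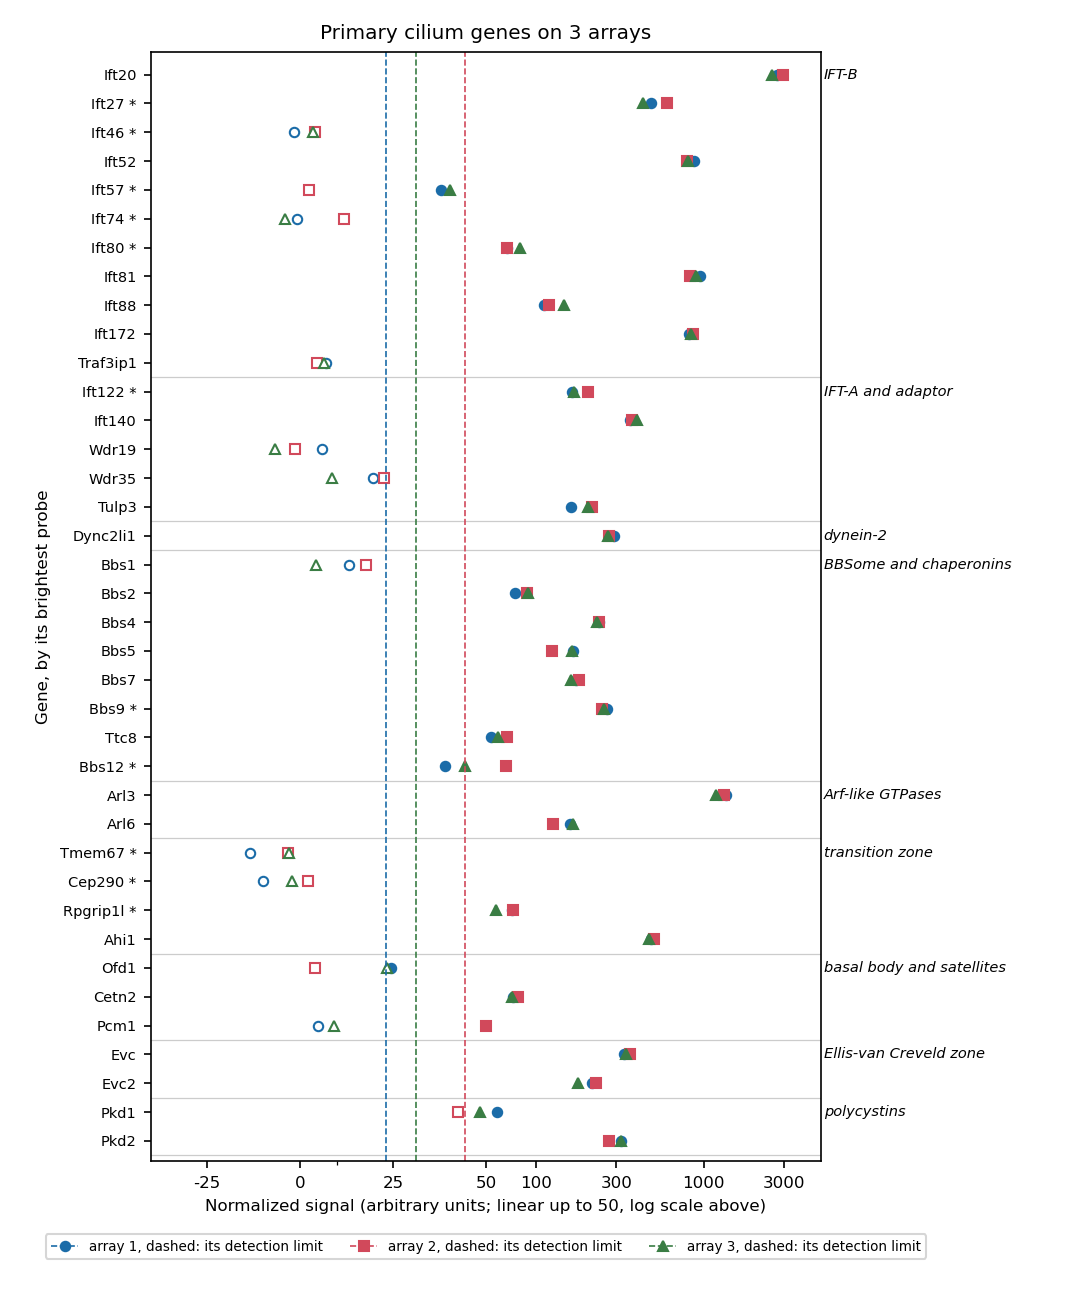
Normalized signal (x axis, arbitrary units, linear up to 50 and log scale above) of each measured gene on arrays 1 to 3, grouped by role, with dashed lines at each array's detection limit. Filled symbols passed a detection p of 0.01 on that array, open symbols did not, and an asterisk marks a probe listed under an older symbol. Most genes sit well to the right of the limits or around 0, and Ift57, Ofd1, Pcm1 and Pkd1 mix filled and open symbols.

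RFX transcription factors bind a palindromic element, the X-box, in the promoters of many cilium genes. The motif searched was GTTNCC followed by 2 free bases and GGNAAC, where N is any base. It reads the same on both strands and was searched in promoter sequences from RefSeq (build GRCm38.p6, 250 bases before to 50 after the start), which were found for 37 of the 43 listed genes. An exact match stood in 3 of the 37 (8.11%) and in 143 of all 27025 genes with a promoter sequence (0.529%). With up to 1 mismatch at the 10 fixed letters, the counts were 6 of 37 (16.2%) against 2.89% of all genes, and with up to 2 they were 12 of 37 (32.4%) against 15.8%. A match is a description of the letters and not evidence of binding. The promoters of Bbs7 and Ahi1, the measured members with an exact match, are shown with the element in capitals, 5′ to 3′ on the strand of the gene. That of Bbs7 lies at chr3:36613340-36613639 on the minus strand, and its element begins 121 bases before the start. That of Ahi1 lies at chr10:20952297-20952596 on the plus strand, and its element begins 21 bases after the start.
Bbs7: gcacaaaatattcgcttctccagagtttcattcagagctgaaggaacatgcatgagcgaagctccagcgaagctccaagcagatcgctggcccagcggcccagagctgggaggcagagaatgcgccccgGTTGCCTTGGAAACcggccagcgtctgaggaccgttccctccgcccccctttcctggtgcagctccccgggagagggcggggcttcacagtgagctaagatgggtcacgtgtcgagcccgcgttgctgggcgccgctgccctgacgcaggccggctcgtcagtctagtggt
Ahi1: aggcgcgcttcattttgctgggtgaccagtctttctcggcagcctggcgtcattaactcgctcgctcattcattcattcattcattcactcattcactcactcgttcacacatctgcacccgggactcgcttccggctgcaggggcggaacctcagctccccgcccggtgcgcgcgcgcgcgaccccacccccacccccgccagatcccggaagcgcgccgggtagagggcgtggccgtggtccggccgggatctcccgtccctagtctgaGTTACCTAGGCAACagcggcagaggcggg

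Both genes with an exact element were detected. The remaining gene, Mks1, was not measured. The members with 1 mismatch were Bbs4, which was detected, and Ift57 and Bbs1, which were not. Their elements are shown with capitals for letters that equal the fixed letters of the motif, and whether the letters go with detection was not tested.
Bbs4: GTcgCCcgGGaAAC
Ift57: GTTgCCgtGGtgAC
Bbs1: GTTgCCaaGGcgAC
With up to 2 mismatches the element stood in 6 of the 22 detected members with a promoter sequence (27.3%) and in 4 of the 10 not detected (40%). Among the RFX genes themselves 3 of 6 (50%) were detected, a share near the 43.6% of all genes with updated symbols. Rfx1 gave signals of 422, 429 and 450 on arrays 1, 2 and 3 by 1 of its 2 probes, Rfx2 gave 88, 99.3 and 77, and Rfx4 gave 57.6, 52.8 and 61.9 by 1 of 3 probes. Rfx3 was not detected by any of its 4 probes, and its brightest read 18.2, 18.1 and -1.11. Rfx5 (5.73, 0.332 and 5.5) and Rfx7 (-5.81, -6.32 and -5.92) were not detected either.

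IFT-B, the complex that carries cargo toward the tip, was detected at 5 of 7 members by symbol (71.4%) and 7 of 11 with older symbols (63.6%). Beside this and each role count below stand 43.4% of all symbols and 43.6% of all genes with updated symbols. The 50% of IFT-A by symbol, of the transition zone with older symbols and of the polycystins lay near those shares. The basal body, at 33.3%, lay below them. Each role holds few genes. Ift20, which also acts at the Golgi in sending membrane cargo to the cilium, was detected by all 3 of its probes. The brightest gave 2720, 2983 and 2572 on arrays 1, 2 and 3, a mean of 2758 ± 208 (SD, n = 3 arrays), at least 67.3 times the limit on every array. Ift52, a core subunit without which the complex does not assemble, gave 871, 797 and 809 (825 ± 39.6). Ift81, which binds tubulin as cargo, was likewise detected by 3 of 3 probes, the brightest at 951, 829 and 904 (895 ± 61.7). Ift172, the largest IFT-B protein, gave 818, 862 and 838 (839 ± 22) by its brightest probe. Both other Ift172 probes were detected nearer the limit, at 103, 89.3 and 93.9 and at 94.4, 82.3 and 93.5. Ift88, whose loss in the mouse leaves cells with stunted or no cilia, was read at 111, 118 and 146 (125 ± 18.6) by its only probe. On array 2 that was 2.67 times the limit. These 5 genes were above the limit on every array by every probe.

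Ift27, a Rab-like GTPase of IFT-B, was read under its older symbol, and both of its probes were detected. Its brighter probe gave 486, 606 and 436 (509 ± 87.4), with array 2 highest, and its other probe gave 175, 154 and 156. Ift80, a peripheral subunit mutated in a human skeletal ciliopathy, was detected at 67.2, 66.8 and 79.4 (71.1 ± 7.18), under 2 times the limit on array 2. Ift74, the partner of Ift81 in tubulin binding, was not detected and read -0.822, 11.8 and -4.17. Neither was Ift46, which links outer dynein arms to IFT in Chlamydomonas, at -1.59, 3.91 and 3.4. Traf3ip1, a microtubule-binding subunit, lay at 6.99, 4.51 and 6.55, below the limit on every array.

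Ift57 gave no call by any of 4 probes, but the probes differed. The probe found by symbol read -5.29, -31 and -10.6, at background on all arrays. Of 3 probes under the older symbol Esrrbl1, 1 gave 37.9 on array 1 and 40.4 on array 3, both above the limit, and 2.44 on array 2. The other two read between 1.33 and 28.9 and passed on no array. For Ift57 the arrays therefore did not give the same state for 1 probe, and array 2 was the one without signal.

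IFT-A, the complex of return transport, and its adaptor were detected at 2 of 4 members by symbol and 3 of 5 with older symbols. Ift140, a core subunit, gave 362, 372 and 400 (378 ± 19.5) by 1 of the 2 probes that carry its symbol. The other read 12.4, 34 and 15.5 and passed on no array, although the deposited table gives both the same gene definition. An additional Ift140 probe, under an expressed sequence name, gave 279, 252 and 259 (263 ± 14.2). Ift122, also of the core, was read at 164, 203 and 168 (178 ± 21.4) under the older symbol Wdr10. Tulp3, which links IFT-A to membrane receptors on their way into the cilium, lay at 162, 216 and 203 (194 ± 28.3), with array 1 lowest. Wdr19 read 5.93, -1.45 and -6.84 and Wdr35 read 19.5, 22.6 and 8.49. Both encode IFT-A subunits, and neither passed on any array. Dync2li1, the light intermediate chain of the return motor, was detected at 292, 272 and 267 (277 ± 13.4), while a second probe under an older clone name read -4.42, 2.22 and -8.81.

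The BBSome and its chaperonins gave 5 of 6 members by symbol and 7 of 8 with older symbols. Bbs4, which contacts pericentriolar material, was among the most even members over the arrays, at 238, 238 and 229 (235 ± 5.34). Bbs7, of the BBSome core, gave 173, 179 and 161 (171 ± 8.73). Bbs5, which binds phosphoinositides, gave 166, 124 and 164 (151 ± 23.6), with array 2 below both others. Bbs2, also of the core, lay at 74.1, 88.3 and 89 (83.8 ± 8.39). Ttc8 was detected by both probes close to the limit, at 53.9, 66.6 and 59.2 and at 37.6, 52.8 and 43.8, and the dimmer one lay only 1.19 times above the limit on array 2. Bbs9, under an older symbol, gave 264, 247 and 254 (255 ± 8.55) by 1 probe and 5.61, 11.5 and 6.02 by the other, which was not detected. Bbs12, a chaperonin-like assembly factor, was read at 39, 65.5 and 44.2 (49.6 ± 14), near the limit on all arrays. Bbs1, the subunit that binds Arl6, was the only measured member of this set without a call, at 13.3, 17.8 and 4.35.

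Both measured Arf-like GTPases were detected. Arl3, which releases lipid-anchored proteins from their carriers inside the cilium, gave 1363, 1324 and 1185 (1291 ± 93.6) by its brighter probe and 337, 269 and 272 by the other. Arl6, the GTPase that recruits the BBSome to membranes, gave 158, 126 and 165 (149.8 ± 21). Array 2 was again the lowest, at 2.84 times its limit.

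Of the transition zone, 1 of 1 member by symbol and 2 of 4 with older symbols were detected. Ahi1, whose human counterpart is mutated in Joubert syndrome, gave 481, 502 and 469 (484 ± 16.7). Rpgrip1l, a scaffold of the zone read under an older clone name, was detected at 71.2, 72.8 and 57.6 (67.2 ± 8.39). Cep290, which tethers the membrane to the axoneme there, read -9.97, 2.27 and -2.11. The membrane protein gene Tmem67 read -13.4, -3.1 and -3.06. Neither of these last genes passed on any array, and each had 1 probe, listed under an older name.

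At the basal body only Cetn2, which encodes a centrin of the centriole, was detected, at 72.5, 77.8 and 71.4 (73.9 ± 3.42). Ofd1, a protein of the distal centriole and of satellites, read 24.4, 4.08 and 23.3 and passed on array 1 alone. Pcm1, the scaffold of centriolar satellites, passed by 1 of 2 probes on array 2 alone, at 4.88, 50.3 and 9.21, while its other probe read -7.35, 7.04 and -0.137. For both genes the array that stood apart was array 2, low for Ofd1 and high for Pcm1.

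Evc and Evc2, partner membrane proteins at the base of the cilium that promote Hedgehog signalling through Smo, were both detected. Evc gave 333, 361 and 343 (346 ± 14.3) and Evc2 gave 213, 227 and 176 (205 ± 26.1). Of the polycystins, Pkd2, a cation channel of the ciliary membrane, was detected at 320, 270 and 321 (303 ± 29.3). Its partner Pkd1 gave 58, 42.3 and 48.4 (49.6 ± 7.91), above the limit on arrays 1 and 3 and 0.955 times the limit on array 2, where its detection p was 0.015. Pkd1 was the member just outside the threshold, and Ttc8 by its dimmer probe the one just inside.

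**Figure D2:**
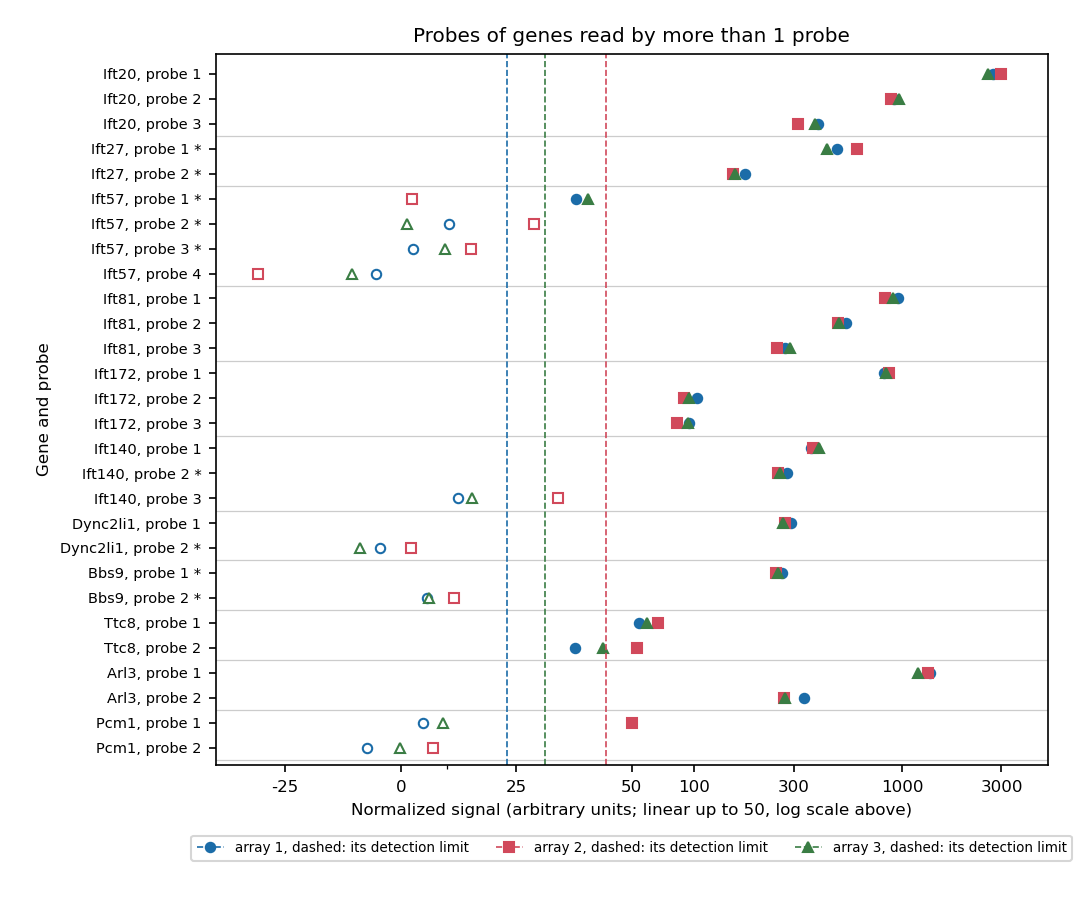
Normalized signal (x axis, arbitrary units, linear up to 50 and log scale above) of every probe of the genes read by more than 1 probe, on arrays 1 to 3, with dashed lines at each array's detection limit. Filled symbols passed on that array, open symbols did not, and an asterisk marks a probe under an older symbol. All probes of Ift20, Ift27, Ift81, Ift172, Ttc8 and Arl3 passed, those of Ift140, Dync2li1 and Bbs9 were split, and those of Ift57 and Pcm1 gave no call.

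Among the 7 members with several probes under their own symbol, all probes were detected for 5, some for 1 (Ift140) and none for 1 (Pcm1). Over the detected member probes, after the authors' rescaling of each array, the median SD of log2 signal was 0.106. It was 0.745 on the non-normalized intensities. Without array 1, 2 or 3 it was 0.0895, 0.07 and 0.0936, where each SD rests on 2 values and cannot be set directly against 0.106. On the normalized signals the SD ran from 0.033 (Bbs4) to 0.245 (the dimmer probe of Ttc8), and its median over all 9693 detected probes was 0.109. On the linear scale the median SD was 7.35% of the mean. Array 2 was the lowest of the 3 for 12 of the 28 probes and the highest for 10. Of all 9693 detected probes, array 2 was the lowest for 3513 and the highest for 4246. On the authors' normalized signals, the log2 difference of array 2 from the mean of arrays 1 and 3 had a median of -0.036. The median was 0.0182 over all detected probes and 0.0017 over the 8863 within the members' range of mean signal. Among the 28 member probes the difference ran from -0.412 for Bbs5 to 0.378 for the dimmer Ttc8 probe. Bbs12, under an older symbol, lay at 0.657. The mean signals of these 28 probes ran from 44.7 to 2758.

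**Figure D3:**
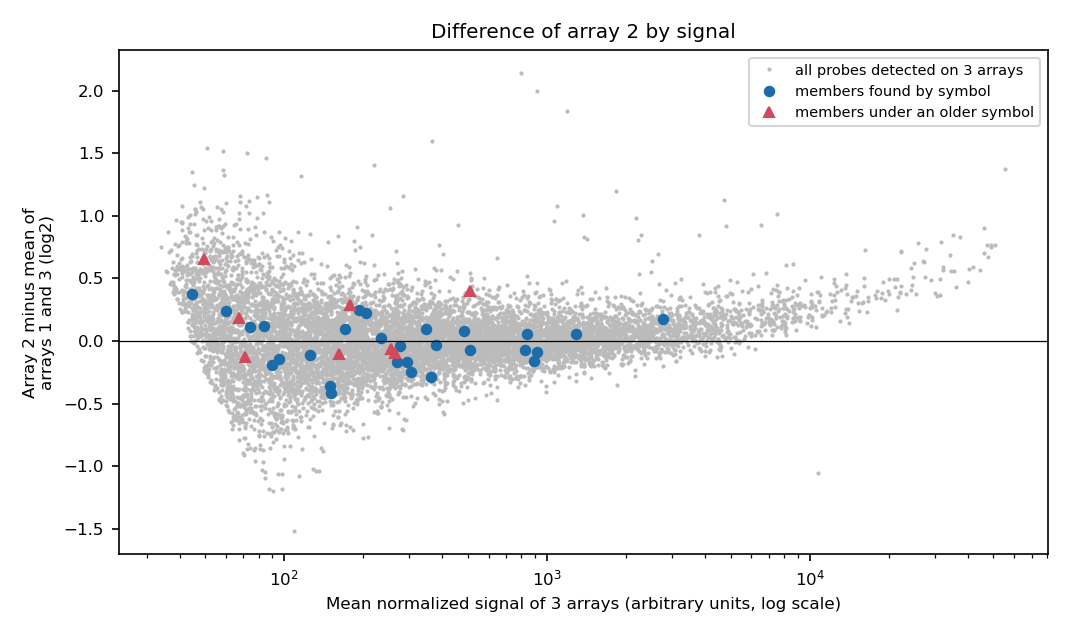
Log2 difference of array 2 from the mean of arrays 1 and 3 (y axis) against the mean normalized signal of the 3 arrays (x axis, arbitrary units, log scale). Grey points are the 9693 probes detected on all arrays, blue circles the 28 detected member probes found by symbol and red triangles members under an older symbol. Members scatter around 0, from -0.412 to 0.657, within the cloud of all probes.

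Other genes linked to the primary cilium, from lists of 84 genes that share none with the 43, were detected at 51 of the 72 measured (70.8%). The 72 include the 6 RFX genes given above and the 7 Hedgehog genes given below. Of all genes with updated symbols 43.6% were detected, and this share stands beside each list count that follows. In IFT and its motors 10 of 14 were detected. They included the IFT-B genes Ift22 (74.9, 93.2 and 85.4 on arrays 1, 2 and 3), Cluap1 (65.8, 59.7 and 66) and Ttc26 (125, 74 and 93.5) and the IFT-A gene Ift43 (1062, 1061 and 1098). Ttc30a1, Ttc30b, Kif3b and Kif17 were not detected. Kif3b (21.4, 15 and 24.7) encodes a motor subunit of kinesin-2, while its partners Kif3a (478, 558 and 470) and Kifap3 (1287, 1295 and 1433), named here after their values were seen, were detected. Transition zone genes gave 11 of 13, among them B9d1, Tctn2, Tctn3 and Cc2d2a, while Invs was not detected. Genes of the centriole and its appendages gave 15 of 17, including Cep164 and Cep83, which dock the basal body to the membrane, but not Sclt1 or Ttbk2. Partners of the BBSome gave 4 of 6, without Lztfl1 and Sdccag8, and ciliary membrane traffic gave 7 of 9, with Rab8a and Rab11a but without Rab23 and Gpr161.

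Genes of Hedgehog transduction, which takes place in the cilium, gave 1 of the 7 measured. Gli1, Gli2 and Kif7 were also listed but had no probe. Smo was detected at 580, 597 and 591 by 1 of 3 probes. The receptor gene Ptch1 (22.9, 18.9 and 10.5), Gli3 (3.55, 8.45 and 1.6) and Boc (5.53, 32.5 and 21.7) had 1 probe each and were not detected. Sufu (7.97, 9.07 and 4.3) was not detected by either of its 2 probes. On array 1 Ptch1 lay just under the limit of 23.1. Motile cilia, which beat and which fibroblasts do not bear, use other genes in addition to IFT, and of these 0 of 15 were detected on all 3 arrays. Foxj1, the master regulator of motile cilia, read 27.9, 36.2 and 33.9 and passed on arrays 1 and 3. Tekt1 (35.8, 37.5 and 39.6) and Rsph1 (40.3, 32.2 and 33.2), named here after their values were seen, passed on the same arrays, and array 2, with the highest limit, was the one on which all 3 failed. The axonemal dynein genes Dnah5 (-7.31, 5.68 and -6.64) and Dnah11 (-13, 3.28 and -0.918) and the regulator Ccno (-7, -5.29 and 4.58) passed on no array.

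**Figure D4:**
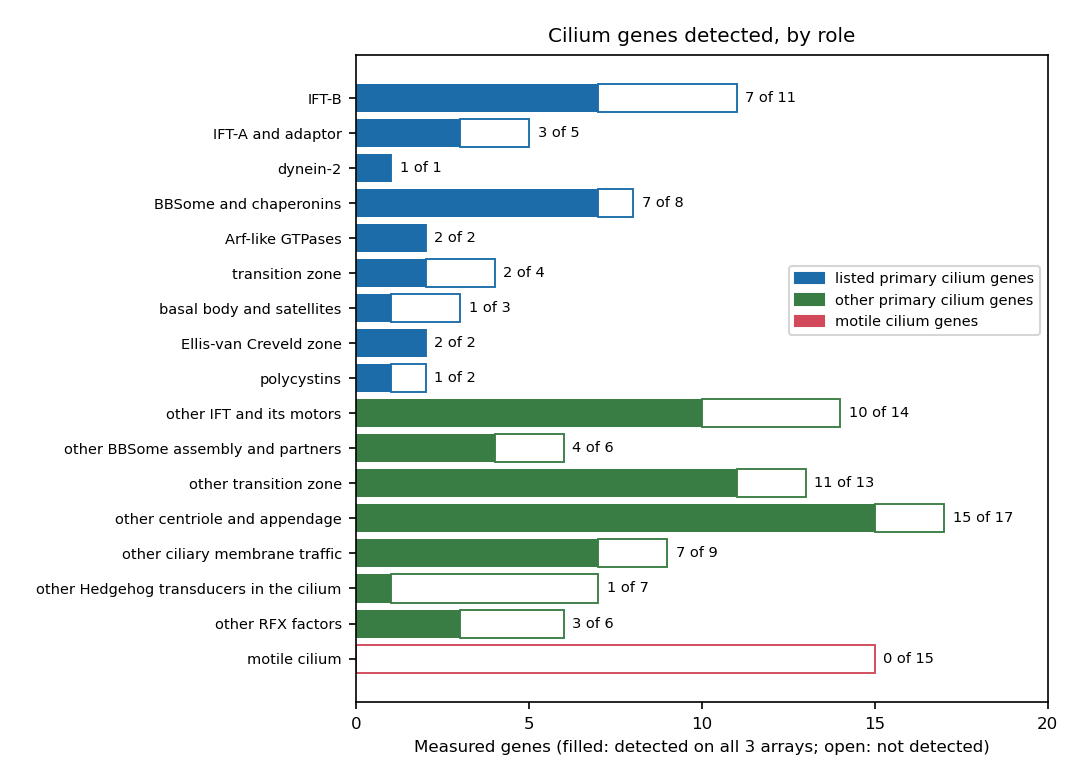
Number of measured genes (x axis) in each role group of the listed primary cilium genes (blue, with older symbols), the lists of other primary cilium genes (green) and the motile cilium list (red), with the detected genes filled and the others open. Detection reached 7 of 8 for the BBSome and chaperonins and 15 of 17 for the centriole list, against 1 of 7 for Hedgehog transducers and 0 of 15 for motile cilium genes. Over all genes with updated symbols 43.6% were detected. Listed genes without a probe, among them Gli1, Gli2 and Kif7 of the Hedgehog list, are not counted.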

How the data were processed

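RNA of 1 pool was measured on 3 Illumina MouseRef-8 arrays, all in 1 group by their titles. Trizol extraction, an RNeasy clean-up with DNase I and biotin labelling of cRNA with the Ambion MessageAmp kit are recorded per the labels' protocols. The authors deposited a non-normalized and a normalized bead intensity for each probe. The normalized intensity equalled the non-normalized one after a linear rescaling of each array (slopes 0.672, 2.07 and 0.699 for arrays 1, 2 and 3, largest residual 0.0152). Their value table is identical to it, so it is linear and uncentred (medians 14.9, 21.5 and 15). How the slopes were derived is not given in the sources used here. Detection p-values deposited in both tables are equal.

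Older symbols were replaced from RefSeq's list for GRCm38.p6 (by symbol for 17548 probes, by the name in the definition for 1320, by a synonym of 1 gene for 5854, kept for 975). Where the file gave a chromosome, it equalled that of RefSeq for 42 of 42 member probes. The detection limit of an array is its lowest normalized signal at a detection p under 0.01. A gene was valued by its brightest probe. The detection limit, SDs and log2 differences were computed with pandas 2.3.3, and alternative normalizations with limma 3.58.1. Alternatives changed the p threshold, the arrays required, the probes required, the names matched and the normalization. Members, lists and tests were chosen with earlier results of these data known. All measured members are named, and of the other lists, in list order, the first 4 detected and first 4 undetected genes, or all genes of a side with 5 or fewer; some of these are given only by count.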

Additional observations from a re-analysis of the deposited data

How the results depend on the processing

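The count of members detected by symbol, 20, ran from 19 to 23 under all alternatives tried on those 28 genes. Pkd1 was added at a detection p under 0.05, with at least 2 arrays, with at least 1 array and without array 2, Ofd1 and Pcm1 were added with at least 1 array, and Ift140 was lost under the requirement that all probes pass. Leaving out 1 array at a time gave 20 to 21 genes. Member probes detected, 28, ran from 27 to 31, and from 28 to 29 without 1 array. For single genes, those found by symbol were followed on the probes of that symbol alone, and the others on their older-symbol probes. Among the 38 genes so read, Bbs12, Ofd1, Pcm1 and Pkd1 were the 4 whose call changed with the threshold or the arrays. The call for Bbs12 failed at the threshold of 0.001. Ift57 kept its call by its own symbol, but its Esrrbl1 probe that passed on arrays 1 and 3 would add it with at least 2 arrays, with at least 1 array or without array 2. The addition of older symbols was chosen after seeing the data and gave 26 genes and 36 probes.

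The count of other cilium genes, 51 of 72, was 51 without any 1 array and 35 with every probe required (32.4% of all symbols). It fell to 26 when older symbols were not followed, since fewer genes were then matched. The motile cilium count, 0 of 15, was 4 at a detection p under 0.05 (48.3% of all symbols) or with at least 1 array (51.5%). It was 3 with at least 2 arrays (47.4%), and 0 to 3 without 1 array, the 3 arising without array 2. The median SD of log2 signal, 0.106, was 0.745 on the non-normalized intensities, where the arrays keep their different slopes. It was 0.0898 after normexp background correction with quantile normalization. Without 1 array it was 0.07 to 0.0936, each SD then resting on 2 values. The median log2 difference of array 2, -0.036 for member probes and 0.0182 for all detected probes, also moved with the scale. It was -0.0283 and -0.00348 after normexp correction with quantile normalization, and -0.0292 and -0.0033 after quantile normalization alone. The opposite signs were thus seen on the authors' scale only. No paired analysis was possible because the series holds 1 group. Depth does not apply to arrays, and a call rests on the signal over the array's own detection limit, which was highest on array 2 (44.3).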
